A study of Mus musculus with 6 samples.

Results

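Cassette exons of 61 to 150 nt whose length is a multiple of 3 were examined in mouse brain RNA with either of 2 alleles of *Nxf1*, the gene for the major mRNA export receptor. A cassette exon is an internal exon that is either kept in the mature mRNA (inclusion) or spliced out between its neighbours (exclusion). Members were all events annotated as alternative cassettes whose name ended in a single exon length within these bounds that 3 divides, and no measured value entered the choice. The rule gave 1093 exons in 998 genes, 8.41% of the 13002 events in the table and 28.9% of its 3777 cassette events. Intensities were given for 1088 of them in 994 genes, and the other 5 had no complete set of intensities. The shortest member had 63 nt and the longest 150 nt, the length of 21 to 50 codons, with a median of 99 nt.

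The RNA came from whole brains of the B6.CAST congenic line, in which all animals share the same inbred background and differ at a segment of chromosome 19 that carries *Nxf1*. There were 3 *Nxf1* B6 homozygotes and 3 *Nxf1* CAST homozygotes, in 3 same-sex littermate pairs of opposite genotype. Of the pairs, both females of 1 were 46 days old and both females of another 23 days, and the male pair was 22 days old for the *Nxf1* B6 animal and 23 days old for the *Nxf1* CAST animal. Each RNA was hybridized to 1 Affymetrix MJAY array, on which separate probe sets read the exclusion path and the inclusion path of an event. No other treatment was given, and because the whole segment around *Nxf1* came from CAST, the effect of *Nxf1* cannot be told apart from that of the genes beside it. The deposited table does not say which genotype is set A and which is set B. Set B was likely *Nxf1* CAST, since the table defines its score as mutant over wild type and the sign of that score follows set B over set A.

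Within coding sequence, skipping an exon of this kind removes a block whose length is a multiple of 3 and leaves the reading frame downstream as it was. Both mRNAs can then encode a full protein, with and without the block. Members are called frame-preserving by length alone, and whether each lies in coding sequence was not checked. Skipping an exon whose length 3 does not divide shifts the frame, often brings in an early stop codon and can expose the mRNA to nonsense-mediated decay. Frame-preserving cassettes are common in brain, where they alter binding surfaces of receptors, channels, adhesion molecules and scaffolds. Splicing regulators bound in and around the exon set how often it is kept.

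Primers of gel assays that the study designed are given for 4 of the genes described here, and they are shown because they define which stretches of mRNA were tested outside the array. The names of the *Fkbp14*, *Ap1b1* and *Ganab* assays are those of the array events. The *Flnc* assay names only the gene, which held 1 member exon. All primers are written 5′ to 3′ in lower case, and the source lists them as numbered primers of an assay.
Fkbp14 90 nt, assay a, primer 1: ggcaaagaaggaaaagtattttagta
Fkbp14 90 nt, assay a, primer 2: ctcctggaaattcgaaatgg
Fkbp14 90 nt, assay a, primer 3: tcgtgatggctttcattcac
Fkbp14 90 nt, assay b, primer 1: tgggcatactggaggttctc
Fkbp14 90 nt, assay b, primer 2: ccatttcgaatttccaggag
Ap1b1 63 nt, primer 1: ggctcagcgagtagtgcag
Ap1b1 63 nt, primer 2: tctcccctttcttggttgtg
Ap1b1 63 nt, primer 3: cggacattttgctgctgaag
Ganab 66 nt, primer 1: ggacttatggcctttgagca
Ganab 66 nt, primer 2: ccttttcctgggtctcctct
Flnc, primer 1: gaaggggatgaccaagttga
Flnc, primer 2: gagaaccatgatggcacctt

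For each exon the table gives 4 whole-number intensities, exclusion and inclusion for set A and for set B, each as 1 value for all arrays of that set. Where a pair of values is given without its sets, set A comes before set B. Exclusion intensities of the members ran from 45 to 7685 in set A and from 57 to 8860 in set B, with medians of 254 and 256. Inclusion intensities ran from 62 to 7396 in set A and from 60 to 8068 in set B, with medians of 423 and 410.5. All 4 intensities reached 100 in 862 members (79.2%), against 79.0% of all 12560 events with intensities. The sum of exclusion and inclusion intensity, averaged over the sets, had a median of 842 for the members and 686 for the frame-shifting cassette exons of the same lengths. Values per array were not given, so the animals' own spread is unknown, none of the differences below was tested, and the small number of arrays limits their precision.

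Of 8 neuronal genes listed, 5 had events, and the summed intensity of these events lay between the 69.6th and the 99.99th percentile of all events. Oligodendrocyte genes lay between the 82.1st and the 99.95th percentile and astrocyte genes between the 44.0th and the 99.92nd. Endothelial events lay between the 8.50th and the 49.6th percentile and the events of a microglial gene between the 45.0th and the 51.0th. None of the 4 liver genes had an event, and the single events of a muscle gene and of a blood gene lay at the 36.8th and the 12.9th percentile. Summed over the events of a list, set B minus set A was -0.01 on the log2 scale for neurons, 0.04 for astrocytes, -0.04 for oligodendrocytes, 0.05 for microglia -0.05 for endothelium, 0.13 for the muscle gene and 0.18 for the blood gene. In whole brain, fewer cells of a type and less RNA per cell cannot be told apart.

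The inclusion share of an exon was taken as inclusion intensity over the sum of inclusion and exclusion intensity. The probe sets differ between the paths, so the share ranks exons only roughly and is not a share of mRNA molecules. Over the members its median came to 61.05% for set A and 59.8% for set B. For frame-shifting cassette exons of the same lengths the medians were 62.9% and 62.3%, and over all events they were 54.0% and 53.6%. Averaged over the sets, 22.0% of members had a share over 80% and 7.17% had one under 20%, against 22.7% and 6.37% of the frame-shifting exons. In the spread of this measure the members lay close to the frame-shifting exons.

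**Figure D1:**
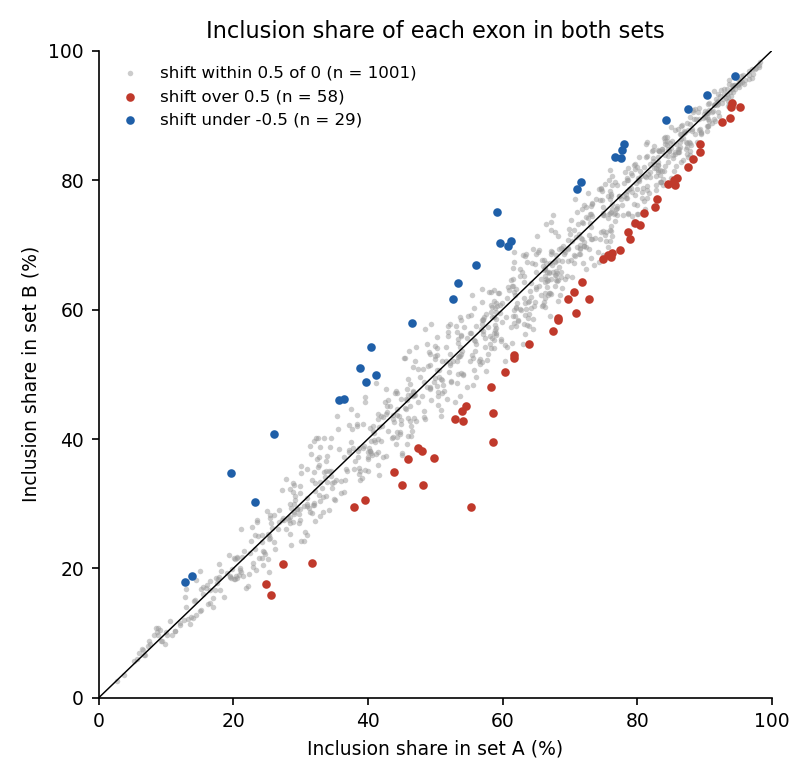
Inclusion share of each of the 1088 exons in set A (x axis, %) and set B (y axis, %), with the line of equal shares. Exons with a shift over 0.5 (red, 58) lie below the line and those with a shift under -0.5 (blue, 29) above it, and the shares of both kinds run from under 30% to over 90%.

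The highest share among members with all intensities of at least 100 was that of the 93-nt exon of *A2bp1*, now *Rbfox1*, a splicing regulator of neurons. Inclusion read 5010 in set A against 4960 in set B, and exclusion 149 against 148, so that the share was 97.1% in both. The 114-nt exon of the translation factor gene *Eif4g2* (95.7% and 96.3%), the 126-nt exon of the signal peptide peptidase gene *H13* (95.6% and 95.2%) and the 117-nt exon of *Tpt1* (94.98% and 94.92%) were also among the highest. None of these 4 genes had an exclusion intensity over 181 in either set.

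The lowest share was that of the 129-nt exon of *Camk2b*, a subunit of the calcium/calmodulin-dependent kinase of synapses. Exclusion reached 7466 in set A and 8141 in set B, against an inclusion intensity of 205 and 220, a share of 2.67% and 2.63%. The 108-nt exon of the receptor phosphatase gene *Ptpra* (3.77% and 3.47%), the 75-nt exon of the transcription factor gene *Hlf* (5.74% and 6.03%), the 150-nt exon of the tubulin-modifying enzyme gene *Agtpbp1* (6.01% and 6.96%) and the 123-nt exon of *Vapa*, which tethers membranes to the endoplasmic reticulum, (6.66% and 6.59%) followed. At both ends of the range the share differed between the sets by less than 1 percentage point in each of the exons named.

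The shift of an exon was defined as the log2 ratio of exclusion to inclusion intensity in set B minus the same in set A. A shift above 0 means relatively more exclusion in set B, and a shift of 0.5 is about a 1.4-fold change of the ratio. The median shift was 0.05 over the members, 0.03 over all events and 0.03 over frame-shifting cassette exons of the same lengths. Among members 631 shifts were above 0, 456 below and 1 at 0, so that 58.0% were above 0, against 55.4% of all events. From the 5th to the 95th percentile the shift ran from -0.41 to 0.51, and in 313 members (28.8%) it was within 0.1 of 0. The median absolute shift was 0.18 for the members, 0.19 for the frame-shifting exons and 0.17 for all events.

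A shift over 0.5 was found for 58 members (5.33%), against a background of 4.51% of all events. A shift under -0.5 was found for 29 members (2.67%), against a background of 2.72% of all events. Both shares were near the background, so the counts say nothing particular about the members. The frame-shifting exons had 53 over 0.5 (5.04%) and 37 under -0.5 (3.52%). The 87 members past the threshold lay in 86 genes, since *Tacc2* held 2 of them. Centred on the median shift of all events, the counts were 44 over and 42 under, and with an offset of 50 added to each intensity they were 22 and 16. An exon past the threshold is one whose pooled ratio differed by this size, and not one that passed a test.

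**Figure D2:**
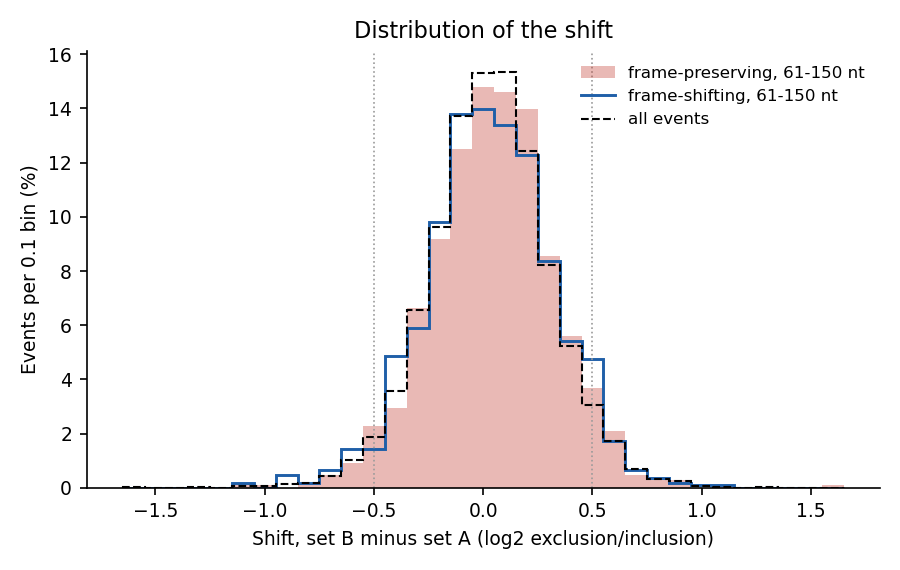
Percent of exons or events per bin of 0.1 (y axis) by shift, set B minus set A on the log2 scale (x axis), for the frame-preserving exons (filled), the frame-shifting exons of the same lengths (blue line) and all events (dashed line). The 3 distributions lie over each other around medians of 0.05, 0.03 and 0.03, dotted lines mark 0.5 and -0.5, and the few events beyond 1.65 are outside the axis.

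In most exons past the threshold the exclusion path differed more than the inclusion path. Exclusion was also the dimmer path at the median of all members (254 and 256 against 423 and 410.5). The same counts were not taken over other events, so whether they are particular to the members is unknown. Opposite directions are favoured past the threshold, because the shift is the exclusion difference minus the inclusion difference. Of the 58 exons over 0.5, the exclusion path differed more in 50 and the inclusion path in 8, and the paths moved in opposite directions in 38. The median log2 difference of set B over set A in these exons was 0.46 for exclusion and -0.15 for inclusion. Of the 29 exons under -0.5, exclusion differed more in 20 and inclusion in 9, with opposite directions in 22. Their median difference was -0.47 for exclusion and 0.19 for inclusion. An intensity under 100 was found in 19 of the 58 and in 7 of the 29.

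**Figure D3:**
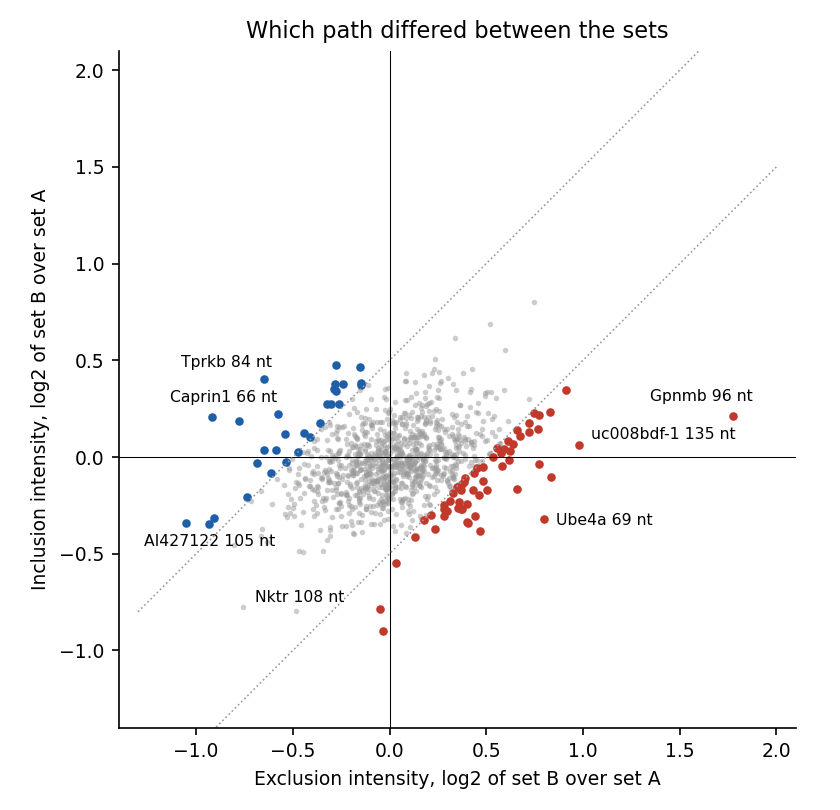
Log2 of set B over set A for the exclusion intensity (x axis) and the inclusion intensity (y axis) of each exon, with dotted lines where the shift is 0.5 or -0.5 and 7 exons named. Exons over 0.5 (red) spread mostly to the right and exons under -0.5 (blue) mostly to the left, whereas *Nktr* lies low with an inclusion difference of -0.78 and an exclusion difference of -0.05.

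The largest shift among all members was that of the 96-nt exon of *Gpnmb*, a membrane glycoprotein of phagocytic and pigment cells. Exclusion was 254 in set A against 870 in set B, a ratio of 3.43, while its inclusion intensity was 315 and 365. The shift was 1.56 and the inclusion share 55.4% in set A and 29.6% in set B. The exclusion path ran over chr6:48986771-48992786 on the plus strand, in the positions of the table, whose genome assembly is not stated. Beside it, the events of the microglial marker gene *Csf1r* differed by 0.05 between the sets, and whether microglia had a part in the *Gpnmb* value was not tested.

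The 69-nt exon of *Ube4a*, a ubiquitin chain elongation factor, came next with a shift of 1.12. The exclusion intensity was 375 in set A against 652 in set B, and the inclusion intensity 531 against 425. A 135-nt exon of a transcript listed only as uc008bdf-1, on chromosome 17, had exclusion intensities of 537 and 1058 and inclusion intensities of 499 and 520, a shift of 0.92. Here the exclusion path was 1.97 times as bright in set B while the inclusion path differed by a factor of 1.04.

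The 75-nt exon of *Abi3bp*, which encodes an extracellular matrix protein, had a shift of 0.85. In sets A and B its exclusion path read 452 and 625 and its inclusion path 641 and 492, so that the inclusion share was 58.6% and 44.0%. In the 132-nt exon of the ribosomal S6 kinase gene *Rps6ka6* exclusion was 342 and 539 and inclusion 159 and 142, a shift of 0.82. The 102-nt exon of *Zfml*, now *Zfp638*, a nuclear zinc finger protein, had exclusion intensities of 200 and 272, inclusion intensities of 198 and 160 and a shift of 0.75.

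The 93-nt exon of *Exoc7*, a subunit of the exocyst that tethers secretory vesicles, had a shift of 0.74, with exclusion of 360 and 476 and inclusion of 295 and 233. A 66-nt exon of the unnamed transcript uc007yyp-1 had the same rounded shift of 0.74, from 157 and 207 for exclusion and 421 and 333 for inclusion. The 108-nt exon of *Nktr*, a cyclophilin with serine- and arginine-rich repeats, stood apart in kind. Exclusion was 210 and 203 and inclusion 513 and 298, so that its shift of 0.73 lay in the inclusion path. The 126-nt exon of the metalloreductase gene *Steap2* closed the highest 10 with a shift of 0.66, from 333 and 459 for exclusion and 394 and 344 for inclusion.

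**Figure D4:**
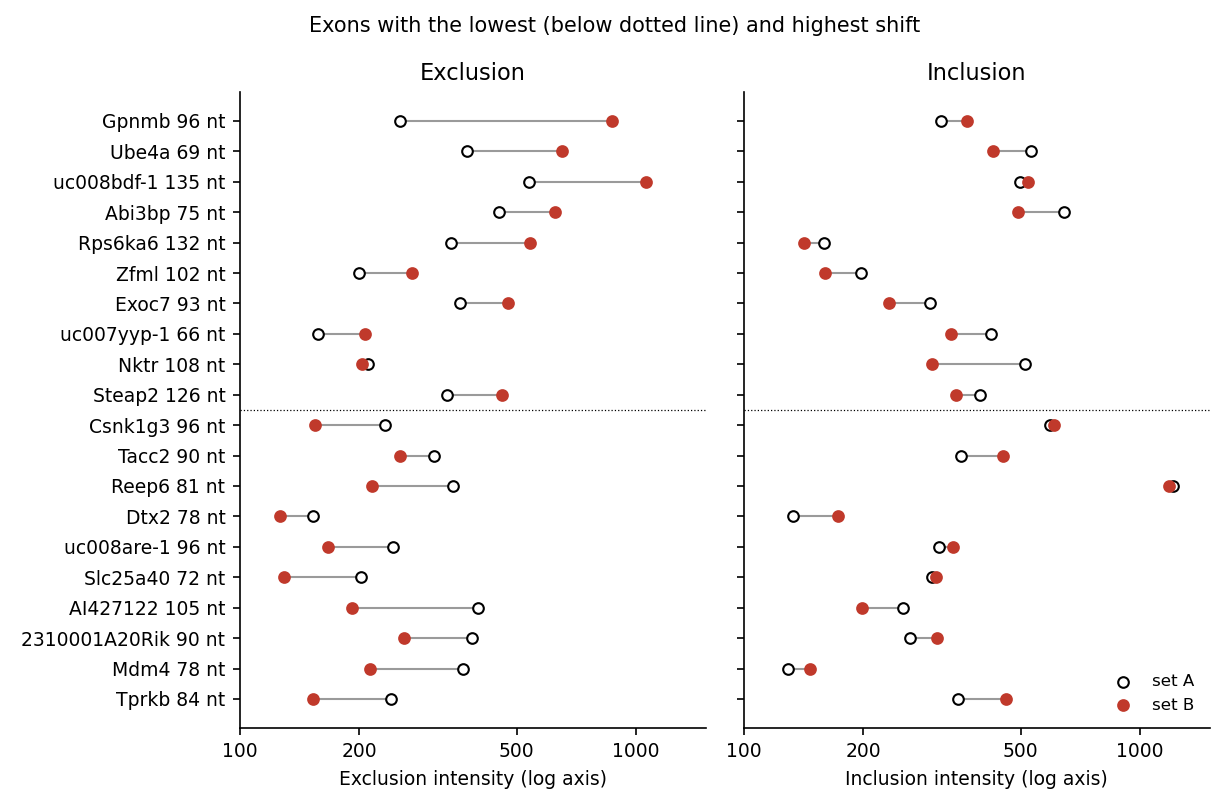
Exclusion intensity (left) and inclusion intensity (right) of the exons at either end of the shift, 10 highest and 10 lowest, among members with all intensities of at least 100, on log axes, with set A as open and set B as filled circles. In the upper 10 the exclusion path is brighter in set B for every exon but that of *Nktr*, and in the lower 10 it is dimmer in set B for each exon.

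On the side of more inclusion in set B, the lowest shift among members with all intensities of at least 100 was that of the 84-nt exon of *Tprkb*, a subunit of the complex that modifies transfer RNA at a threonyl-carbamoyl adenosine. Exclusion read 240 for set A against 153 for set B and inclusion 348 against 460, a shift of -1.05, and the inclusion share was 59.2% and 75.04%. The exclusion path ran over chr6:85871505-85874353 on the plus strand. The 78-nt exon of *Mdm4*, an inhibitor of p53, had exclusion intensities of 365 and 213, inclusion intensities of 129 and 147 and a shift of -0.97. The 90-nt exon of 2310001A20Rik, now *Apmap*, followed at -0.80, from 386 and 259 for exclusion and 263 and 307 for inclusion.

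In the 105-nt exon of AI427122, now *Pls1*, a plastin that bundles actin, both paths were dimmer in set B. Exclusion was 398 and 192 and inclusion 252 and 199, a shift of -0.71. The 72-nt exon of the mitochondrial carrier gene *Slc25a40* had exclusion intensities of 202 and 129 and nearly equal inclusion intensities of 298 and 306, a shift of -0.69. The 81-nt exon of *Reep6*, which shapes the endoplasmic reticulum, was like it, with 346 and 215 for exclusion, 1213 and 1187 for inclusion and a shift of -0.66. In these 2 exons the inclusion path differed between the sets by under 4% and nearly all of the shift lay in the exclusion path.

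The remaining exons of the lowest 10 had shifts between -0.66 and -0.63. They were a 96-nt exon of the unnamed transcript uc008are-1, the 78-nt exon of *Dtx2*, a ubiquitin ligase of the Notch pathway, the 90-nt exon of the centrosomal protein gene *Tacc2*, and the 96-nt exon of the casein kinase gene *Csnk1g3*. In *Dtx2*, which was at -0.49 with the offset, exclusion was 153 and 126 and inclusion 133 and 173, whereas in *Csnk1g3* exclusion was 233 and 155 and inclusion 591 and 607. The inclusion path was thus 1.30 times as bright in set B for *Dtx2* and 1.03 times for *Csnk1g3*.

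Among exons with an intensity under 100, where a small difference in brightness moves the ratio far, the highest 4 had shifts of 0.67 to 0.94. The 117-nt exon of *Traf7* had exclusion intensities of 92 and 164 beside inclusion intensities of 1837 and 1712, a shift of 0.94. *Rexo2*, an RNA exonuclease gene, had 96 and 164 beside 1442 and 1405 at its 84-nt exon, a shift of 0.81. The inclusion share was 95.2% in set A against 91.3% in set B for *Traf7*, and 93.8% against 89.5% for *Rexo2*. The 150-nt exon of *Cyp2c70*, a cytochrome P450 of liver, had inclusion intensities of 112 and 60 and a shift of 0.86, and the 114-nt exon of *Apool* had a shift of 0.67, or 0.42 with the offset of 50. On the other side the 66-nt exon of *Caprin1*, an RNA-binding protein of stress granules, had the lowest shift of all members at -1.13, from 316 and 167 for exclusion and 77 and 89 for inclusion. The 93-nt exon of the guidance molecule gene *Sema3f* (-0.75) and the 87-nt exon of the growth factor gene *Fgf8* (-0.62) came after it among the dim exons.

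The exons past the threshold with the brightest paths were chosen after their values were seen, and their absolute shifts ran from 0.51 to 0.92. The 120-nt exon of *Nt5c2*, a cytosolic nucleotidase, had exclusion intensities of 862 and 1101, inclusion intensities of 1853 and 1541 and a shift of 0.62. The 66-nt exon of *Gnaz*, a G protein alpha subunit of neurons, had exclusion of 901 and 1120, inclusion of 704 and 602 and a shift of 0.54. The 129-nt exon of *Bin1*, which encodes a protein that bends membranes, had 525 and 681 and 1926 and 1748, a shift of 0.52. The 93-nt exon of *Agfg1* (0.51), the 66-nt exon of the cofilin phosphatase gene *Ssh1* (0.56) and the 69-nt exon of *Spen* (-0.54), a regulator of transcription with RNA-binding domains, had no intensity under 402. Together with the exons of uc008bdf-1 and *Abi3bp* these were the 8 whose dimmest path was brightest, and 7 of the 8 shifts were above 0. Of all 87 members past the threshold, 58 were above 0, and centring on all events made that split 44 against 42. With the offset *Agfg1* (0.48) and *Spen* (-0.49) as well as *Bin1* (0.48) were no longer past the threshold, and centring put *Agfg1* at 0.48.

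The absolute shift was smallest where both paths were bright. With members divided into 4 groups by the lowest of their 4 intensities, the median absolute shift was 0.20 for the 273 exons with a lowest intensity of 45 to 109, 0.23 for the 271 at 110 to 184, 0.16 for the 272 at 185 to 338 and 0.13 for the 272 at 339 or more. The exons past the threshold made up 9.52%, 9.96%, 8.09% and 4.41% of these groups. By exon length the groups differed less, and the median absolute shift rose with length. The median absolute shift was 0.16 in the 437 exons up to 90 nt, 0.17 in the 402 from 93 to 120 nt and 0.22 in the 249 from 123 to 150 nt. In frame-shifting exons of the same length ranges it was 0.17, 0.18 and 0.21, so that this order was shared. The share past the threshold did not rise steadily in the members, at 8.47%, 7.46% and 8.03% from the shortest to the longest group. In the frame-shifting exons it was 7.47%, 7.82% and 11.2%. The median signed shift was 0.04, 0.04 and 0.10 in the members and 0.01, 0.04 and 0.04 in the frame-shifting exons.

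By inclusion share, exons past the threshold were few where the exclusion probe sets were much the brighter. Of the 78 members with a share up to 20%, none had a shift over 0.5 and 2 had one under -0.5. Of the 264 with a share of 40 to 60%, 17 had a shift over 0.5 and 9 one under -0.5, and of the 239 with a share over 80%, 14 and 8. At the bounds of the length rule, the median shift was 0.03 for the 51 cassette exons of 60 nt and 0.08 for the 50 members of 63 nt. It was 0.03 for the 21 members of 150 nt and -0.06 for the 13 cassette exons of 153 nt.

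In genes known for regulated exons, none of the members but that of *Nxt1* was past the threshold. The 63-nt exon of *Grin1*, the NMDA receptor subunit, has the length of the cassette that lies in its extracellular N-terminal part, and it had exclusion intensities of 3029 and 2851 and inclusion intensities of 1542 and 1292. Its shift was 0.17 and its share 33.7% in set A and 31.2% in set B. The 90-nt exons of the neurexin genes *Nrxn2* and *Nrxn3*, presynaptic adhesion molecules, had shares of 59.0% and 59.6% and of 65.0% and 63.2%, with shifts of -0.04 and 0.11. The 93-nt exon of *Mapt* has the length of the exon that encodes a microtubule-binding repeat of tau. Exclusion was 165 and 194 and inclusion 1406 and 1330, a share of 89.5% and 87.3% and a shift of 0.31. The shifts of *Grin1* and the neurexins were thus smaller than that of *Mapt*.

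Other members of such genes lay within 0.31 of 0. The 99-nt exon of the synaptic scaffold gene *Dlg1* had a shift of -0.30, with a share of 53.7% in set A and 58.8% in set B. The 108-nt exon of *Gphn*, which encodes the scaffold gephyrin of inhibitory synapses, had a shift of 0.19 and a share of 16.5% and 14.7%. The kinase gene *Camk2g* held 2 members with shifts of opposite sign, -0.12 for the 63-nt exon and 0.11 for the 69-nt exon. The 75-nt exon of the calcium channel gene *Cacna1c* (-0.10), the 81-nt exon of the potassium channel gene *Kcnma1* (0.19) and the 129-nt exon of *Camk2b* (0.02) completed these genes.

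The 135-nt exon of *Nxt1* was past the threshold, but not with the offset of 50, which gave 0.40. *Nxt1* encodes the small partner that pairs with *Nxf1* in mRNA export. The study also designed a gel assay for *Nxt1*, and whether it covered this exon was not checked. At candidate sites that the paper tested by gel, some picked for links to *Nxf1*, it reports no significant difference between the alleles. The exclusion intensity was 148 in set A against 191 in set B, and the inclusion intensity 126 against 112, so that its shift was 0.54 and its share 46.0% and 37.0%. It ranked 42nd among the 1088 shifts. The 99-nt exon of *Flnc*, the actin cross-linker filamin C, had exclusion intensities of 227 and 240, inclusion intensities of 489 and 599 and a shift of -0.21, with both paths brighter in set B.

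Of the members tested by gel under their event name, 1 of 3 was past the threshold. Over all events 4.51% were over 0.5 and 2.72% under -0.5. The paper picked such gel sites for extreme separation scores on the same arrays. That score was not used here and is not the pooled shift. By gel the paper reports a significant difference for *Ganab* between the congenic animals of either genotype. In mice with only the *Nxf1* variant edited in, it found no significant difference for *Ganab*. The paper therefore takes the *Ganab* difference as strain variation in that gene and not as an effect of *Nxf1*. The paper reports no significant difference between the alleles for the sites tested that lay outside the congenic segment and had no retroviral insertion in the intron. The 63-nt exon of *Ap1b1*, a large subunit of the AP-1 clathrin adaptor, had exclusion intensities of 94 and 122, inclusion intensities of 793 and 658 and a shift of 0.65. The 90-nt exon of *Fkbp14*, a protein-folding isomerase of the endoplasmic reticulum, had exclusion intensities of 72 and 77, inclusion intensities of 169 and 161 and a shift of 0.17. The 66-nt exon of *Ganab*, the catalytic subunit of glucosidase II, had exclusion intensities of 186 and 161, inclusion intensities of 237 and 194 and a shift of 0.08. In *Ganab* both paths were dimmer in set B by similar factors, so that the share was 56.0% and 54.6%.

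*Ganab* lies in the congenic segment of chromosome 19. Between the outermost events of the genes that mark this segment in the study, chr19:7053631-11866235 in the positions of the table, 6 members were found, and none was past the threshold. The 66-nt exon of 5730453I16Rik, now *Cpsf7*, a subunit of an mRNA 3′ end cleavage factor, had exclusion intensities of 297 and 323, inclusion intensities of 198 and 174 and a shift of 0.31. The 132-nt exon of *Syt7*, a calcium sensor of vesicle release, had 320 and 289 and 1611 and 1276, a shift of 0.19. The 111-nt exon of the fatty acid desaturase gene *Fads1* had a shift of 0.15 and the 117-nt exon of the lymphocyte receptor gene *Cd6* one of 0.04. The 93-nt exon of *Cybasc3*, now *Cyb561a3*, was the only one of the 6 below 0, at -0.34. The median of the 6 was 0.11, and in *Ganab*, *Fads1* and *Syt7* exclusion and inclusion were both dimmer in set B. Set B likely carried CAST sequence here, and base differences under the probes were not tested.

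Grouped by 10 lists of gene families, matched on gene symbols, 264 members lay in at least 1 list and 3 in more than 1. Symbol matching missed some members of these families, among them *Caprin1* (-1.13), AI427122, now *Pls1* (-0.71), *Dtx2* (-0.66) and *Rps6ka6* (0.82). It also caught genes outside a family, such as the kinase gene *Map4k3* among microtubule and motor genes. In the same way *Erbb2ip*, *Fgfr1op2* and *Prkcbp1*, which are not kinase or phosphatase genes, were in that list. The counts below are thus those of the lists and not of whole families. Of the 87 members past the threshold, 17 were in a list and 70 in none. Over all members 5.33% of shifts were over 0.5 and 2.67% under -0.5, against 4.51% and 2.72% of all events. No list held more than 40 members, and the counts in the lists were not tested against these shares. The median shift was above 0 in 7 of the 10 lists (6 when centred on all events) and ran from -0.04 to 0.10, beside 0.05 over all members and 0.03 over all events.

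Among transcription and chromatin genes, 3 of 40 members were over 0.5 and none under -0.5, with a median of 0.09. They were the 69-nt exon of *Tcf7l2*, the effector of Wnt signals, with exclusion of 670 and 824, inclusion of 440 and 362 and a shift of 0.58, the 96-nt exon of the zinc finger gene *Zfp708* (0.59) and the 102-nt exon of the histone methyltransferase gene *Ehmt2* (0.51). An intensity under 100 was found in *Zfp708* and *Ehmt2*, and with the offset of 50 they were at 0.45 and 0.34, so that *Tcf7l2* alone of the 3, at 0.53, stayed past the threshold. Centring put *Ehmt2* at 0.48. The lowest of the list was the 132-nt exon of the deacetylase gene *Hdac9*, at -0.45. Among splicing and RNA binding proteins, 1 of 19 members was past the threshold, that of *Nxt1*, which is an export factor and not a splicing factor, and the median was 0.10. The 72-nt exon of *Hnrnpk*, which encodes an abundant RNA-binding protein, was lowest at -0.47, from 1083 and 836 for exclusion and 4781 and 5101 for inclusion.

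Among ubiquitin pathway genes, 2 of 32 members were over 0.5, *Ube4a* and the 81-nt exon of the ubiquitin ligase gene *Rnf167* (0.51), and 1 was under -0.5, the 75-nt exon of the proteasome activator gene *Psme3* (-0.53). With the offset *Rnf167* was at 0.39 and *Psme3* at -0.42, and centring put *Rnf167* at 0.47. The median was -0.01. Among kinases and phosphatases, 1 of 23 members was over 0.5, the 75-nt exon of *Mtmr14* (0.52), a lipid phosphatase and not a protein phosphatase. The 2 under -0.5 were both casein kinase genes, *Csnk1g3* and *Csnk1a1*, whose 84-nt exon had exclusion intensities of 423 and 254, inclusion intensities of 470 and 407 and a shift of -0.53. With the offset *Csnk1a1* was at -0.45 and *Mtmr14* at 0.41, and centring put *Mtmr14* at 0.485. The list was matched on symbols and did not hold *Rps6ka6*.

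**Figure D5:**
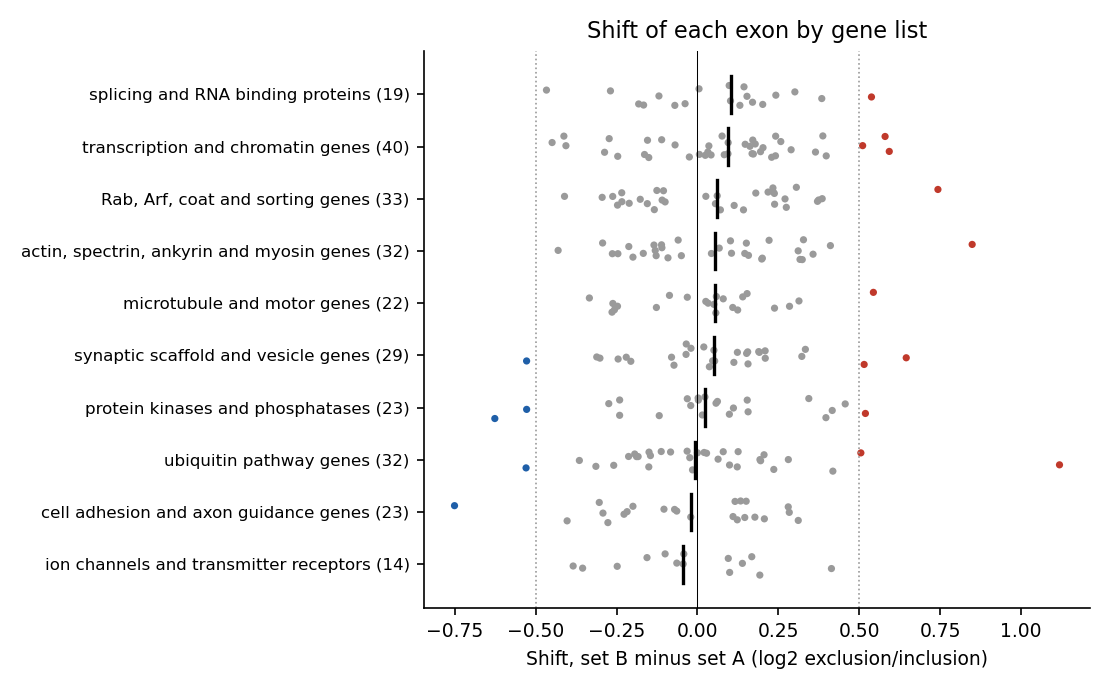
Shift of each member exon, set B minus set A on the log2 scale (x axis), in 10 lists of gene families (rows, with the number of exons), where black bars are medians, red points are over 0.5 and blue points under -0.5. Medians run from -0.04 for ion channels and transmitter receptors to 0.10 for splicing and RNA binding proteins, and no list has more than 3 exons past the threshold.

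Synaptic scaffold and vesicle genes had 29 members with a median of 0.05. Those over 0.5 were the exons of *Ap1b1* and *Bin1*, and the 78-nt exon of *Rims2*, which organises the presynaptic release site, was under -0.5 at -0.53, from 107 and 70 for exclusion and 372 and 351 for inclusion. With the offset *Bin1* was at 0.48 and *Rims2* at -0.31, and centring put *Bin1* at 0.48. The 84-nt exon of another release-site gene, *Erc1*, had a shift of -0.31. None of the 14 members in ion channels and transmitter receptors was past the threshold. Their median was -0.04, and the 87-nt exon of the kainate receptor gene *Grik2* lay at -0.38, from 1037 and 773 for exclusion and 445 and 433 for inclusion. Of 23 members in cell adhesion and axon guidance genes, that of *Sema3f* alone was past the threshold, and the median was -0.02. Within this list, the 144-nt exon of the neuronal catenin gene *Ctnna2* (0.31) and the 75-nt exon of the receptor phosphatase gene *Ptprm* (-0.40) were the extremes among exons with all intensities of at least 100.

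Of 32 members matched as actin, spectrin, ankyrin and myosin genes, the only one past the threshold was that of *Abi3bp*, which the symbol pattern caught and which is not an actin gene. The 75-nt exon of *Arhgap12* (0.41) and the 141-nt exon of *Ablim1*, an actin-binding protein, (-0.43) were the next extremes, and the median was 0.06. Of 22 members in microtubule and motor genes, the 129-nt exon of the kinesin gene *Kif21a* was past the threshold at 0.54, or 0.498 with the offset, from 270 and 296 for exclusion and 867 and 652 for inclusion. The median of that list was 0.05, and the 117-nt exon of the microtubule plus-end gene *Clasp1* was lowest at -0.33. Of 33 members in Rab, Arf, coat and sorting genes, that of *Exoc7* was past the threshold, the 66-nt exon of *Tbc1d10c* was lowest at -0.41, and the median was 0.06.

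More than 1 member was found in 87 genes, 2 in 80 of them and 3 in the other 7. All members of a gene had shifts above 0 in 26 of the 87 genes and below 0 in 23, and signs were mixed in the rest. Members of a gene can share flanking exons and probe sets, so they are not independent. *Tacc2* held the widest contrast among the genes with 3, with shifts of 0.54 for the 126-nt exon, 0.10 for the 141-nt exon and -0.64 for the 90-nt exon. With the offset the 126-nt exon was at 0.42. For the 126-nt exon exclusion read 139 in set A against 229 in set B, and for the 90-nt exon 309 against 253. In *Zfml* the 102-nt exon lay at 0.75 and the 84-nt and 69-nt exons, whose paths start at the same position, at 0.22 and -0.09. In *Ablim1* (-0.43, -0.13 and -0.11) and in *Rsrc2*, a gene for a serine- and arginine-rich protein (-0.32, -0.26 and -0.02), all shifts were below 0. In *Ep400*, *Ktn1* and *Kif13a* no shift was farther than 0.24 from 0, and the table places the 147-nt exon listed under *Kif13a* on chromosome 16 and the gene's other members on chromosome 13.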

How the data were processed

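Brain RNA of 3 *Nxf1* B6 and 3 *Nxf1* CAST animals was measured on Affymetrix MJAY arrays. The authors deposited 1 table of 26514 paths with summarized exclusion and inclusion intensities as whole numbers, pooled over the arrays of a set A and a set B, and 4 intensity columns of the paired comparison were used. Affymetrix Power Tools is named in the submitters' processing notes; background correction, normalization and genome assembly are not given in the sources used here. Separation scores and q-values in the table are the authors' own comparison; none of their values entered a result, and the sign of the score served only to say which set was likely *Nxf1* CAST.

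Paths were joined by event name, taking the first-listed exclusion path or, for 4 members, the inclusion path with its columns exchanged; 8 members had exclusion paths at more than 1 position. Shifts and shares were computed from the intensities, and the code was tested on simulated data. Symbols were updated through RefSeq (GRCm38.p6), which matched 955 of 994 member genes. Of 910 members on the chromosome of their RefSeq gene, 13.2% lay inside it, so no reference sequence was read by position. Primer sequences came from the study's supplement.

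Exons were named by rule: those with gel primers by event name, the 10 highest and 10 lowest shifts and the 5 highest and 5 lowest shares among exons with all intensities of at least 100, the extremes of each gene list under that filter, members in the congenic segment, and members in 25 genes known for regulated exons. Others were named after their values were seen. Some items that the rule or the source holds are not reported here. The members, the lists and the rule were chosen with earlier results of these data known. Alternatives were an offset of 50 on each intensity, a minimum of 100, thresholds of 1 and of log2 of 1.4, centring on all events, the mean of all paths, 1 value per gene and background subtraction. No test was made, because the table used holds 1 pooled intensity per set and none per array. Python 3.11.15, numpy 2.4.6, pandas 2.3.3 and matplotlib 3.10.9 were used.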

Additional observations from a re-analysis of the deposited data

How the results depend on the processing

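No paired analysis was possible because the table gives 1 pooled value per set and none per animal, and for the same reason no replicate could be left out. The median shift of 0.05 was 0.044 with the offset of 50, and 0.05 with the intensity minimum, the mean of all paths and 1 value per gene. The 58 exons over 0.5 became 22 with the offset and 2 over 1, and the 29 under -0.5 became 16 with the offset and 2 under -1; 38 of the 87 were past the threshold in both the main setting and with the offset. With the offset 1.92% of all events were over 0.5 and 1.21% under -0.5. With the minimum of 100, the threshold of log2 of 1.4 and centring, the counts were 39, 66 and 44 over and 22, 37 and 42 under, so that centring on all events moved the split between the directions from 58 against 29 to 44 against 42. The median inclusion share was 65.2% (set A) and 63.01% (set B) after background subtraction, and 56.0% and 55.5% with the minimum of 100. Of 48 named exons past 0.5, 30 remained past it with the offset and 41 after centring, and none changed sign. Lists with a median above 0 were 9 of 10 with the offset, 7 with the minimum and 6 after centring, which are alternatives chosen after seeing the data. The intensities over background that the pooled values allow, and the number of arrays, limit how small a shift can be read.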

Other observations

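Some cassette exons of member length carry a letter after the length in their event name, which sets apart exons of the same length in 1 gene, and so fell outside the rule. There were 11 of these with intensities. The exons *Ank2* 99a, 99b and 99c, in the gene for the scaffold ankyrin-B of axons, had inclusion shares of 52.2%, 51.6% and 38.8% in set A and shifts of 0.15, -0.06 and 0.07. Of the pair in *Pip5k1c*, which makes a phosphoinositide of synapses, the exon 78b had exclusion intensities of 87 and 48, inclusion intensities of 677 and 531 and a shift of -0.51, and the exon 78a a shift of -0.25. The shifts of the pairs in *Tlk2* (0.20 and 0.17) and *Ercc8* (-0.40 and -0.13) were within the threshold.

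For 8 members the same event name stood at 2 positions. The name of the 75-nt exon of *Ptprm* covered an exclusion path with intensities of 187 and 128 beside inclusion of 1402 and 1269, which was used above, and another with 1380 and 1219 beside 93 and 75, with shifts of -0.40 and 0.13. The name of the 99-nt exon of *Mtdh* stood on chromosome 15, with a shift of 0.09, and on chromosome 3, with a shift of -0.15.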
